A study of Homo sapiens with 4 samples.

Results

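Lysine acetyltransferases attach acetyl groups, and in several cases lactyl groups, to histones and other proteins, and histone deacetylases and sirtuins take them off again. These enzymes are often called the writers and erasers of acylation. The 10 genes described here are 6 writers (EP300, CREBBP, KAT2A, KAT5, KAT7 and KAT8) and 4 erasers (HDAC1, HDAC2, HDAC3 and SIRT1). NSUN2, the protein that was pulled down, is a methyltransferase that places 5-methylcytosine on RNA, so the values are about RNA of these genes that came down with NSUN2 and not about enzyme activity. The genes were matched by symbol in the peak annotation of both conditions, and 9 of the 10 were found there, out of 17829 genes with a called peak in at least 1 condition.

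RNA immunoprecipitation with sequencing (RIP-seq) was run on wild-type PANC-1, an established line from a human pancreatic ductal adenocarcinoma, exposed for 24 h to either 30 mM sodium lactate or ddH2O as vehicle. An anti-NSUN2 antibody on protein A/G beads gave 1 IP library per condition, and lysate RNA set aside before the pull-down gave 1 input library per condition, which makes 4 libraries in all. With 1 IP library per condition there is no replicate error, no test was made, and every difference below compares 2 libraries and not 2 conditions. A lower density in an IP library can stand for less of the RNA or for less of it bound, and in bulk samples fewer cells of a type and less RNA per cell cannot be told apart.

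Each peak has a fold enrichment of IP over input in its own list, and each merged peak, which joins overlapping peaks of the lists, has a normalized read density per kb in a window of 2000 bases in each IP library. Merged peaks with a mean density of at least 10 per kb were compared, and those whose densities differed more than 2-fold were counted as higher or lower. The lactate list held 48104 peaks and the ddH2O list 95785, and the windows outside MT-RNR2 and MALAT1 held 1945000 lactate reads and 3536821 ddH2O reads, a 1.82-fold difference in depth inside peaks. Over all 21019 merged peaks at that density, the median log2 ratio of lactate over ddH2O was -0.15 on the deposited densities and 0.06 after scaling by these sums, so ratios are given on both scales where the call differs. Of the markers of ductal epithelium, 7 of 8 had a peak in at least 1 condition. The counts were 0 of 3 for endothelium, 0 of 4 for islet, 1 of 4 for acinar cells, 2 of 5 for fibroblasts and 3 of 5 for leukocytes. With lactate and ddH2O they were 5 and 7 for ductal epithelium, 1 and 1 for fibroblasts, 1 and 3 for leukocytes and 0 and 1 for acinar cells. Over all protein-coding genes, 47.1% had a lactate peak and 58.4% a ddH2O peak.

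NSUN2 peaks lay on 9 of the 10 genes in each condition, where 47.1% of 20046 protein-coding genes had a lactate peak and 58.4% a ddH2O peak. Those 20046 genes were not selected by expression in these cells. Related enzymes were covered alike, with 12 and 14 of 14 other acetyltransferases, 7 and 7 of 8 other zinc-dependent deacetylases and 5 and 6 of 6 other sirtuins. KAT5 had none under its symbol. At a fold over input of at least 4 the lactate count was 6 genes, without KAT7, KAT8 and HDAC3, and at a q-value below 0.05 it was 8, without KAT7, while the ddH2O count was 9 under both. The 9 genes carried 48 peaks with lactate and 93 with ddH2O. By gene, lactate against ddH2O, the writers had 10 and 21 peaks on EP300, 16 and 31 on CREBBP, 1 and 2 on KAT2A, 3 and 7 on KAT7, and 2 and 3 on KAT8. The erasers had 8 and 10 peaks on HDAC1, 4 and 9 on HDAC2, 1 and 2 on HDAC3, and 3 and 8 on SIRT1. Every one of the 9 genes had fewer peaks in the lactate list, which is also the shorter list overall. EP300 and CREBBP carried the most peaks, and at least as many were found on 1009 and 421 protein-coding genes with lactate and on 760 and 334 with ddH2O. They are also long genes, and per 10 kb of gene EP300 had 1.14 peaks with lactate and 2.40 with ddH2O, CREBBP 1.03 and 1.99, and HDAC1 1.93 and 2.41. The medians over protein-coding genes with a peak were 0.675 and 1.11 per 10 kb. KAT7 (0.647 and 1.51) and HDAC3 (0.626 and 1.25) lay below the lactate median and above the ddH2O one.

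**Figure D1:**
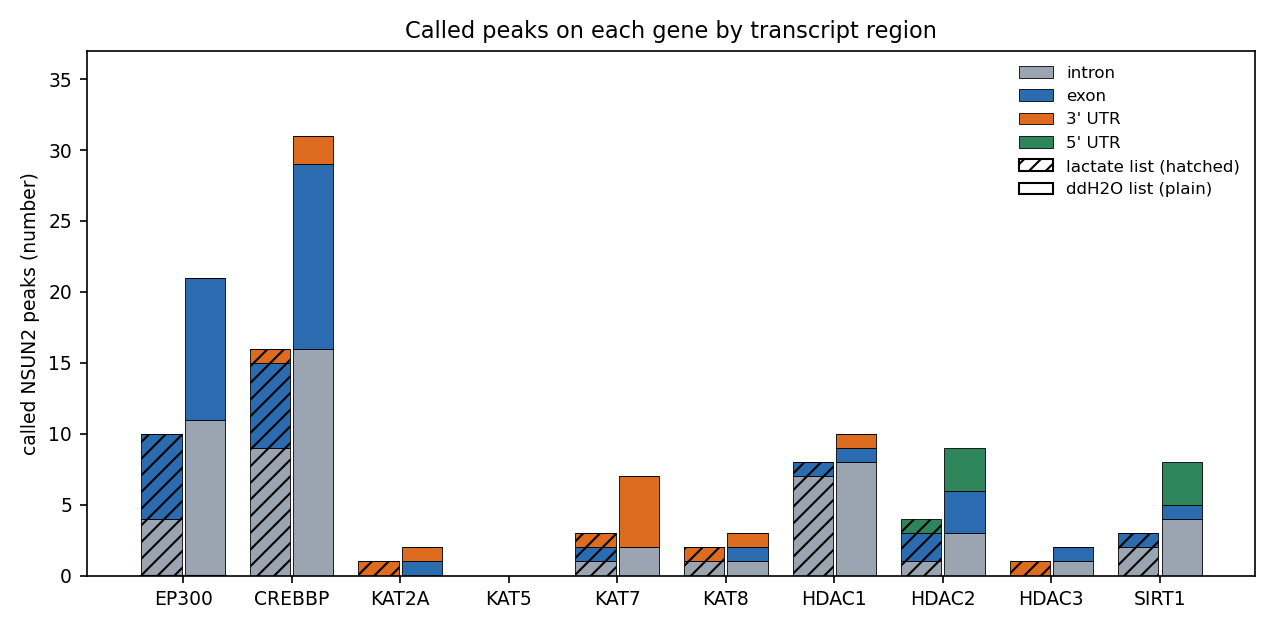
Number of called NSUN2 peaks on each of the 10 genes (y axis), split by transcript region, with the lactate list hatched and the ddH2O list plain. CREBBP has the most peaks in both lists (16 and 31), KAT5 has none, and 5′ UTR peaks are seen on HDAC2 and SIRT1 alone.

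Introns held 25 of the 48 lactate peaks (52.1%, exact binomial interval 37.2 to 66.7%) and 46 of the 93 ddH2O peaks (49.5%, 38.9 to 60.0%), against 61.5% and 61.2% over all protein-coding genes. Peaks labelled exon were 35.4% (22.2 to 50.5%) and 33.3% (23.9 to 43.9%) of the members' peaks, against 18.8% and 21.0%. That label does not exclude untranslated bases, since on KAT2A and HDAC3 a ddH2O exon peak spans a lactate 3′ UTR peak. The 3′ UTR share was 10.4% (3.47 to 22.7%) and 10.8% (5.28 to 18.9%), against 18.1% and 15.8%. The exon share lay above that of protein-coding genes by more than its counting interval in both lists and the intron share below it with ddH2O, while the intervals of the lactate intron share and of both 3′ UTR shares included the protein-coding value. Most exon peaks (12 of 17 with lactate, 23 of 31 with ddH2O) were on EP300 and CREBBP, and without these genes the exon share was 22.7% (5 of 22, 7.82 to 45.4%) and 19.5% (8 of 41, 8.82 to 34.9%), intervals that include the protein-coding value. Peaks of 1 gene and 1 library are not independent, so these intervals cover counting error only. Peaks in the 5′ UTR numbered 1 with lactate (2.08%, 0.0527 to 11.1%, against 1.58% for protein-coding genes) and 6 with ddH2O (6.45%, 2.40 to 13.5%, against 1.98%), and all of them were on erasers, with 3 on HDAC2 and 3 on SIRT1 in the ddH2O list. Of the members' peaks, 34 in each list overlapped a peak of the other list, which is 70.8% of the lactate peaks and 36.6% of the ddH2O peaks, where protein-coding genes gave 58.5% and 29.9%.

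Merging gave 107 merged peaks on the 9 genes, of which 34 were called in both lists, 14 with lactate alone and 59 with ddH2O alone. Of these, 31 in 8 genes reached the density minimum, and they stand for 20 windows that do not overlap a denser one of the same gene, so neighbouring values share reads. None of the 31 was more than 2-fold higher with lactate, where 4.95% of all 21019 merged peaks were, and 6 of 31 were more than 2-fold lower, where 12.1% were. Over the 20 separate windows 3 were lower (15.0%), near the share of all merged peaks. Scaled by the library sums, 1 of 31 was higher, where 10.9% were, and 5 of 31 were lower, where 5.92% were, which over the separate windows became 1 of 20 and 2 of 20 (10.0%). The median log2 ratio of the 31 was -0.48 on the deposited densities and -0.28 after scaling by the sums, both below the medians of all merged peaks. Of the 31 ratios 22 were below 0 (71.0%), against 58.5% of all merged peaks at this density, and they ran from -1.65 on HDAC2 to 0.70 on EP300.

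**Figure D2:**
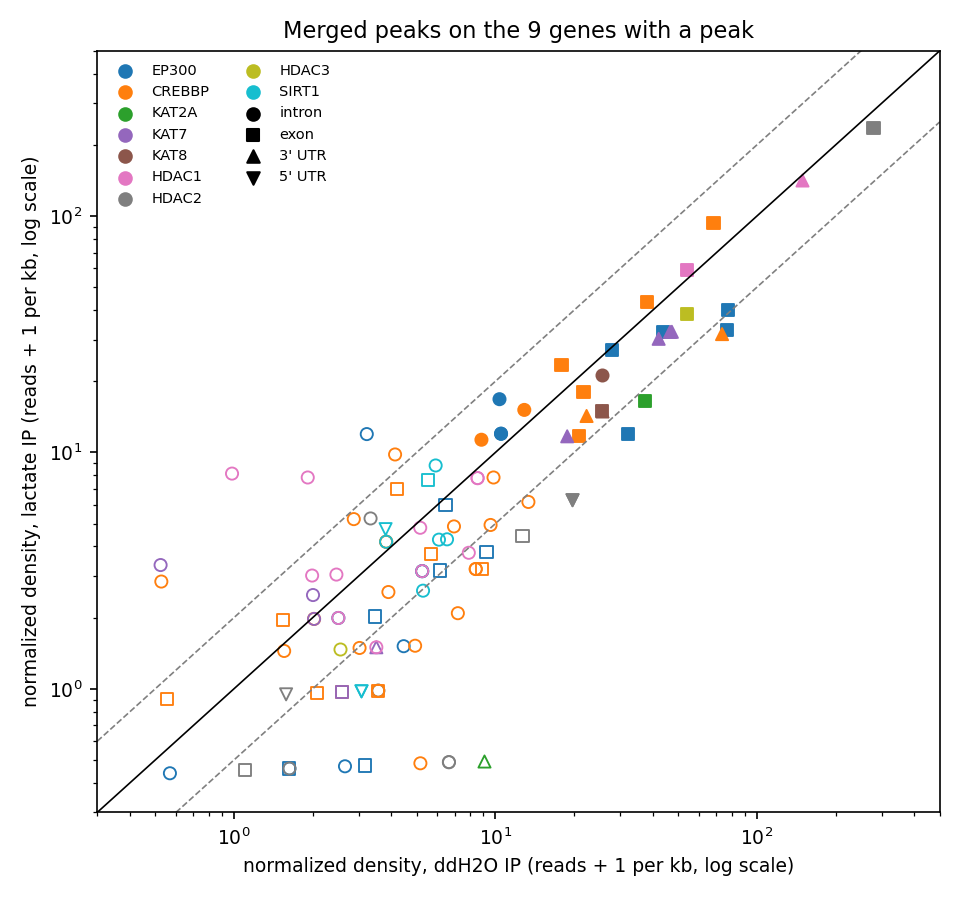
Normalized density (reads plus 1 per kb) of the 107 merged peaks with lactate (y axis) and ddH2O (x axis), both on log scales, coloured by gene and shaped by region, with filled symbols at a mean density of at least 10 per kb. The solid line marks equal densities and the dashed lines a 2-fold difference, and no filled symbol lies above the upper dashed line while 6 lie below the lower one.

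EP300 (ENSG00000100393, chr22:41092592-41180077, plus strand, GRCh38), the acetyltransferase p300 that is also known as a lactyltransferase, read differently in its intron windows at the density minimum and in the exons near its 3′ end. The former were slightly denser with lactate, with counting intervals that include no difference. The window at chr22:41114477-41114936 read 16.8 per kb with lactate and 10.4 with ddH2O (28 and 23 reads), and that at chr22:41108870-41109245 read 12.0 and 10.5. The first of these was the highest ratio among the 31, with a log2 ratio of 0.70 (counting interval -0.14 to 1.57) on the deposited densities and 1.14 by library sums, which made it the 1 member window past 2-fold higher on that scale. Introns under the density minimum read both ways, from 12.0 per kb with lactate against 3.22 with ddH2O at chr22:41097054-41097532 (21 and 6 reads, log2 ratio 1.89, 0.69 to 3.65) to 0.47 against 2.66 at chr22:41115937-41116136 (0 and 4 reads). Of the exon windows lying between 11.4 and 6.54 kb from the gene's end, the first 3 were lower with lactate beyond counting error. At chr22:41168333-41169042 the density was 12.0 with lactate and 32.1 with ddH2O (19 and 76 reads, log2 ratio -1.42, counting interval -2.29 to -0.74). The next, at chr22:41169316-41169796, read 33.1 and 76.7 per kb (50 and 198 reads, log2 ratio -1.21, -1.71 to -0.78). Both were lower past 2-fold on either scale, but their windows overlap each other or the densest EP300 window and share reads, so they are not separate observations. That densest window, chr22:41170230-41170756, read 39.9 and 77.6 per kb (60 and 202 reads) and stopped just short of 2-fold with a log2 ratio of -0.96. Farther along, chr22:41172312-41172811 read 32.3 and 43.9, and chr22:41173441-41173640 read 27.1 and 28.0 (log2 ratio -0.05, -0.64 to 0.51, and 0.21 by library sums), and the counting intervals of both include no difference.

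The fold enrichment over input sets the same IP library against each condition's own input, so it is no independent support for the densities. The reads counted in a window need not be those behind the fold. The 3 intron peaks called in both lists had folds of 8.93, 7.38 and 11.0 with lactate and 3.64, 4.55 and 5.79 with ddH2O. The 5 shared exon peaks were all higher with ddH2O, from 3.64 against 5.46 at chr22:41151693-41152292 to 6.63 against 31.3 at chr22:41172312-41172811, the highest fold on EP300, where the counting interval of the density ratio included no difference (-0.97 to 0.04). Over the members at the density minimum, intron windows had a median log2 ratio of 0.21 (6 windows, 2 of them with the same EP300 reads, 5 above 0) and exon windows -0.44 (15 windows, 4 above 0), where protein-coding genes had 0.09 and -0.32. Without the minimum the intron median on the deposited scale was -0.33 over 58 member windows (38 below 0) and -0.47 over protein-coding genes, while by library sums it was 0.32 (36 of 58 above 0) and 0.28, so its sign depends on the scale.

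**Figure D3:**
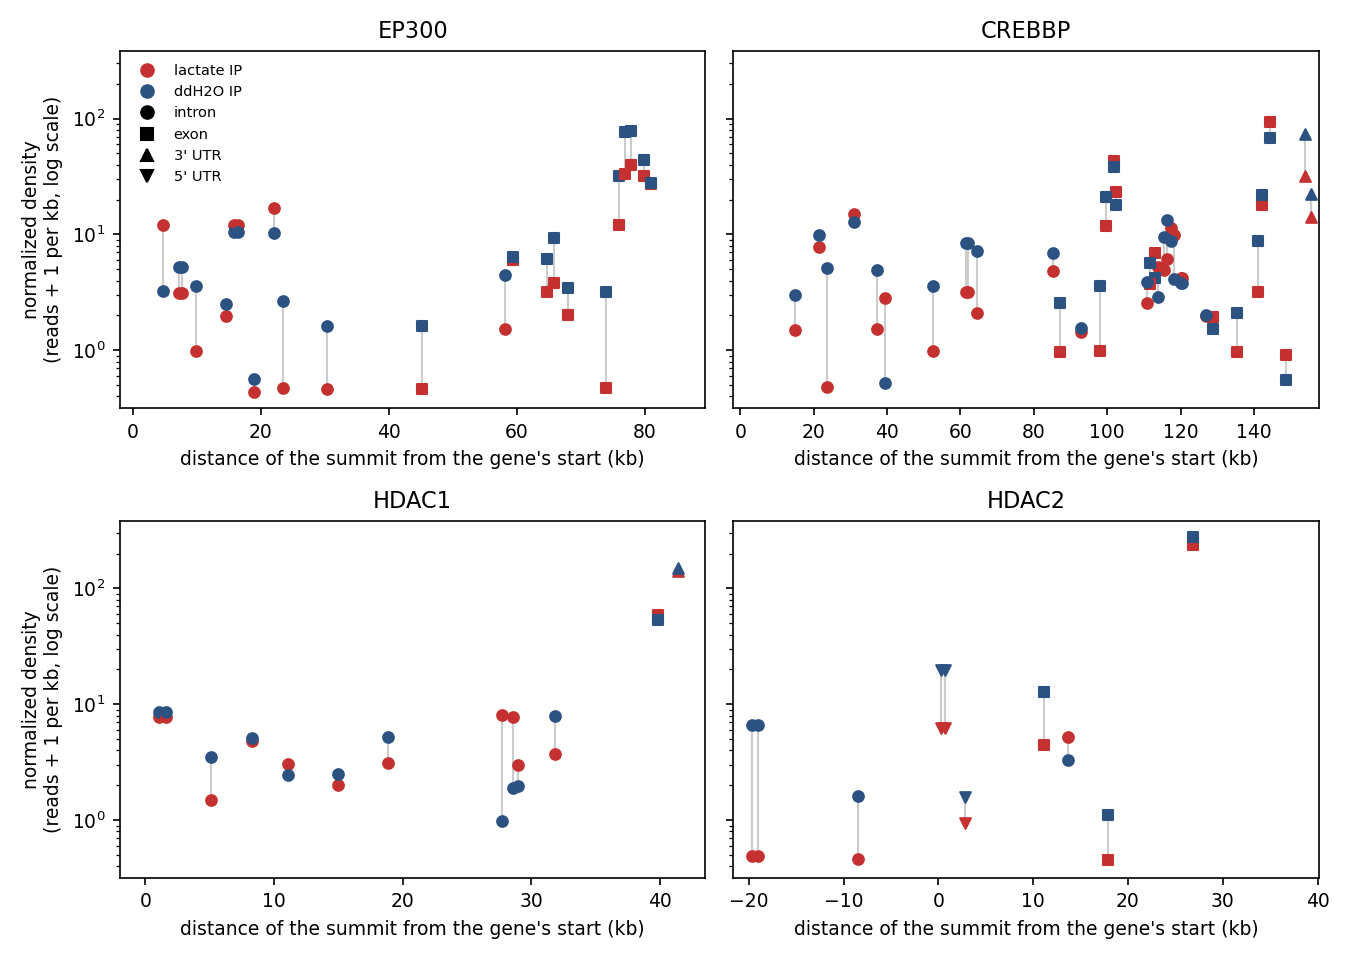
Normalized density (reads plus 1 per kb, log scale) of each merged peak on EP300, CREBBP, HDAC1 and HDAC2 against the distance of its summit from the gene's start in kb, with lactate in red and ddH2O in blue joined by a grey line. On EP300 the exon windows past 75 kb reach 77.6 per kb with ddH2O and 39.9 with lactate, and on HDAC2 3 intron summits lie before the RefSeq start.

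CREBBP (ENSG00000005339, chr16:3725054-3880713, minus strand), the paralogue of p300, held 1 of the few exon windows that were denser with lactate. At chr16:3735898-3736933 the density was 93.7 with lactate and 68.2 with ddH2O (138 and 183 reads, log2 ratio 0.46, counting interval 0.13 to 0.78), and the fold over input was 18.4 with lactate and 11.1 with ddH2O. A further 2 exon windows, which share reads, had counting intervals that include no difference, at chr16:3778550-3778991 with 43.3 and 38.1 per kb and folds of 16.6 and 12.2, and at chr16:3778147-3778370 with 23.4 and 17.9 per kb and folds of 13.6 and 7.26. None of the 3 exon windows passed 2-fold. The 3′ UTR of CREBBP lay on the other side. There the window chr16:3726656-3727078 read 31.7 with lactate and 73.5 with ddH2O (48 and 189 reads, log2 ratio -1.22, -1.73 to -0.77), lower on both scales, although its peak was called with ddH2O alone at a fold of 1.75. The second 3′ UTR window, chr16:3725032-3725457, read 14.3 and 22.3 per kb with folds of 2.71 and 11.4. It overlaps the first window, and its counting interval includes no difference (log2 ratio -0.65, -1.46 to 0.05). The highest fold on any member was an exon peak of CREBBP at chr16:3780548-3781276, with 32.8 for ddH2O and 8.96 for lactate at densities of 20.9 and 11.7 per kb. Windows of CREBBP thus differed in direction within 1 gene. Summed over its 24 separate windows it had 415 and 744 reads, a log2 ratio of 0.02 by library sums.

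KAT2A (ENSG00000108773, chr17:42113111-42121367, minus strand) encodes GCN5, the acetyltransferase of the SAGA and ATAC complexes. Its window at the 3′ end, chr17:42113036-42113853, read 16.5 with lactate and 37.3 with ddH2O (26 and 90 reads, log2 ratio -1.18, counting interval -1.90 to -0.57), and the folds were 4.56 and 7.69. By library sums the log2 ratio was -0.89, within 2-fold, so the call rests on the deposited scale. A second peak at chr17:42114489-42114688, called with ddH2O alone at a fold of 1.82, had 0 lactate reads, a count that allows up to 3, and 17 ddH2O reads.

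KAT7 (ENSG00000136504, chr17:49788681-49835026, plus strand), the HBO1 acetyltransferase, was read mostly in its 3′ UTR. The 4 windows there at the density minimum gave 32.3, 32.4, 30.2 and 11.7 per kb with lactate and 46.5, 47.3, 42.1 and 18.8 with ddH2O, the first 3 sharing reads. All 4 were lower with lactate, with log2 ratios from -0.69 to -0.48, and none passed 2-fold. The highest folds on KAT7 were 3.24 with lactate, at an intron peak with 6 reads against 0, and 7.49 with ddH2O, at the 3′ UTR peak chr17:49832498-49832884. KAT8 (ENSG00000103510, chr16:31117664-31131393, plus strand), the MOF acetyltransferase of histone H4, had an intron window of 21.3 and 25.5 per kb (34 and 61 reads, log2 ratio -0.26) with folds of 2.08 and 5.44, and windows at its 3′ end of 15.0 and 25.5 per kb that share their 24 and 60 reads (log2 ratio -0.77, -1.55 to -0.10). The intron window shares nearly all its reads with a peak annotated to the lncRNA ENSG00000278133 on the same strand (34 and 60 reads), so the transcript of origin cannot be told apart.

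KAT5 (chr11:65712018-65719604), the TIP60 acetyltransferase, had no peak under its symbol, but its span shares 1932 bases with RNASEH2C, a subunit of ribonuclease H2 on the minus strand, whose peaks reach into it. At chr11:65717672-65718137, wholly inside the span of KAT5, the density was 3.33 with lactate and 18.5 with ddH2O (5 and 40 reads, log2 ratio -2.48, counting interval -4.40 to -1.36) and the ddH2O fold was 11.4. At chr11:65719159-65720540, which shares 446 bases with KAT5, the densities were 59.1 and 75.0 per kb and the folds 1.58 and 2.34. The library kit does not mark strand, so reads of KAT5 and RNASEH2C cannot be told apart there.

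Among the erasers, HDAC2 (ENSG00000196591, chr6:113933028-113971148, minus strand), a catalytic subunit of the NuRD, SIN3 and CoREST complexes, had both the densest and the most unequal of the 31 windows. The exon window chr6:113944122-113944512 read 235 with lactate and 279 with ddH2O (315 and 829 reads, log2 ratio -0.25, counting interval -0.44 to -0.06), placing it 584th of all merged peaks, but its peak was called with ddH2O alone and at a fold of 1.63. High density and high enrichment over input therefore fell on different parts of this gene. At the 5′ UTR the peak of chr6:113970671-113971103 had folds of 12.0 and 21.7, the highest of any eraser in both lists, at densities of 6.28 and 19.7 per kb. It was lower with lactate past 2-fold on both scales (10 and 44 reads, log2 ratio -1.65, -2.91 to -0.74, and -1.17 by library sums). The neighbouring 5′ UTR peak chr6:113970306-113970505 holds the same 10 and 44 reads, so these 2 of the 6 lower windows are 1 observation. Both lie inside the 1448 bases that HDAC2 shares with the antisense gene HDAC2-AS2, and without strand their reads cannot be told apart from reads of that gene. HDAC2 is the 1 member with a peak reaching the window from 250 bases before to 50 bases after a RefSeq start, among the 9 members with an entry (KAT8 has none). The 30 bases from position 21 to 50 after that start (chr6:113971099-113971128, minus strand, RefSeq, GRCh38.p14, GC content 66.7%) are shown because the 5′ edge of this peak, in capitals, falls in them.
HDAC2, after the start: ccgctgccacctccgattccgagctTTCGG
The 5 bases in capitals are in the ddH2O peak, and the rest lie before its edge.

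Another 3 HDAC2 peaks, all called with ddH2O alone and annotated as intron of another transcript, lay outside the RefSeq span at -19.7 to -8.43 kb from its start, where HDAC2-AS2 also runs. The pair at chr6:113990109-113990308 and chr6:113990568-113991073 share 12 ddH2O reads and 0 lactate reads, which likewise cannot be told apart from reads of HDAC2-AS2. Inside the gene the exon peak chr6:113959785-113960196 had folds of 7.16 and 12.3 at 4.42 and 12.7 per kb (7 and 27 reads), under the density minimum. Over its 8 separate windows HDAC2 had 342 and 923 reads, a log2 ratio of -0.57 by library sums.

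HDAC1 (ENSG00000116478, chr1:32292083-32333626, plus strand), the paralogue that shares those complexes with HDAC2, had dense windows that differed little. Its 3′ UTR window chr1:32333355-32333622 read 142 with lactate and 149 with ddH2O (199 and 422 reads, log2 ratio -0.07, counting interval -0.33 to 0.17), with a peak called with ddH2O alone at a fold of 2.23. The exon window chr1:32331523-32332341 read 58.9 and 53.9 per kb (log2 ratio 0.13, -0.28 to 0.52) with folds of 7.67 and 6.48. Both intervals include no difference. Introns held 7 of the 8 lactate peaks and 8 of the 10 ddH2O peaks of HDAC1, numbers too small to describe a gene. Over all protein-coding genes the intron shares were 61.5% and 61.2%. Its highest ddH2O fold, 9.10 against 5.31 with lactate, was at an intron peak 1.04 kb from the start. Between 27.7 and 28.9 kb from the start lay 3 intron peaks with lactate alone and none with ddH2O. They had 15, 14 and 5 lactate reads against 1, 3 and 3 ddH2O reads. Only the first had a low q-value (0.00012), and the others had 0.98. Those windows overlap in part and lay under the density minimum at 8.14, 7.83 and 3.01 per kb with lactate.

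HDAC3 (ENSG00000171720, chr5:141620881-141636849, minus strand), the catalytic subunit of the NCOR and SMRT complexes and 1 of the enzymes known to remove lactyl groups, had 1 dense window, at its 3′ end. It read 38.6 with lactate and 54.0 with ddH2O (59 and 138 reads, log2 ratio -0.49, counting interval -0.97 to -0.05), with folds of 2.20 and 5.21. SIRT1 (ENSG00000096717, chr10:67884656-67918390, plus strand), the NAD-dependent deacetylase, had no window at the density minimum, and its densest read 8.80 with lactate and 5.91 with ddH2O (15 and 12 reads). Its 2 peaks called in both lists had higher folds with lactate, 5.83 against 4.85 in an exon and 4.28 against 3.30 in an intron, while its highest fold, 7.25, was at an intron peak called with ddH2O alone. Over its 5 separate windows SIRT1 had 28 and 45 reads, a log2 ratio of 0.18 by library sums.

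**Figure D4:**
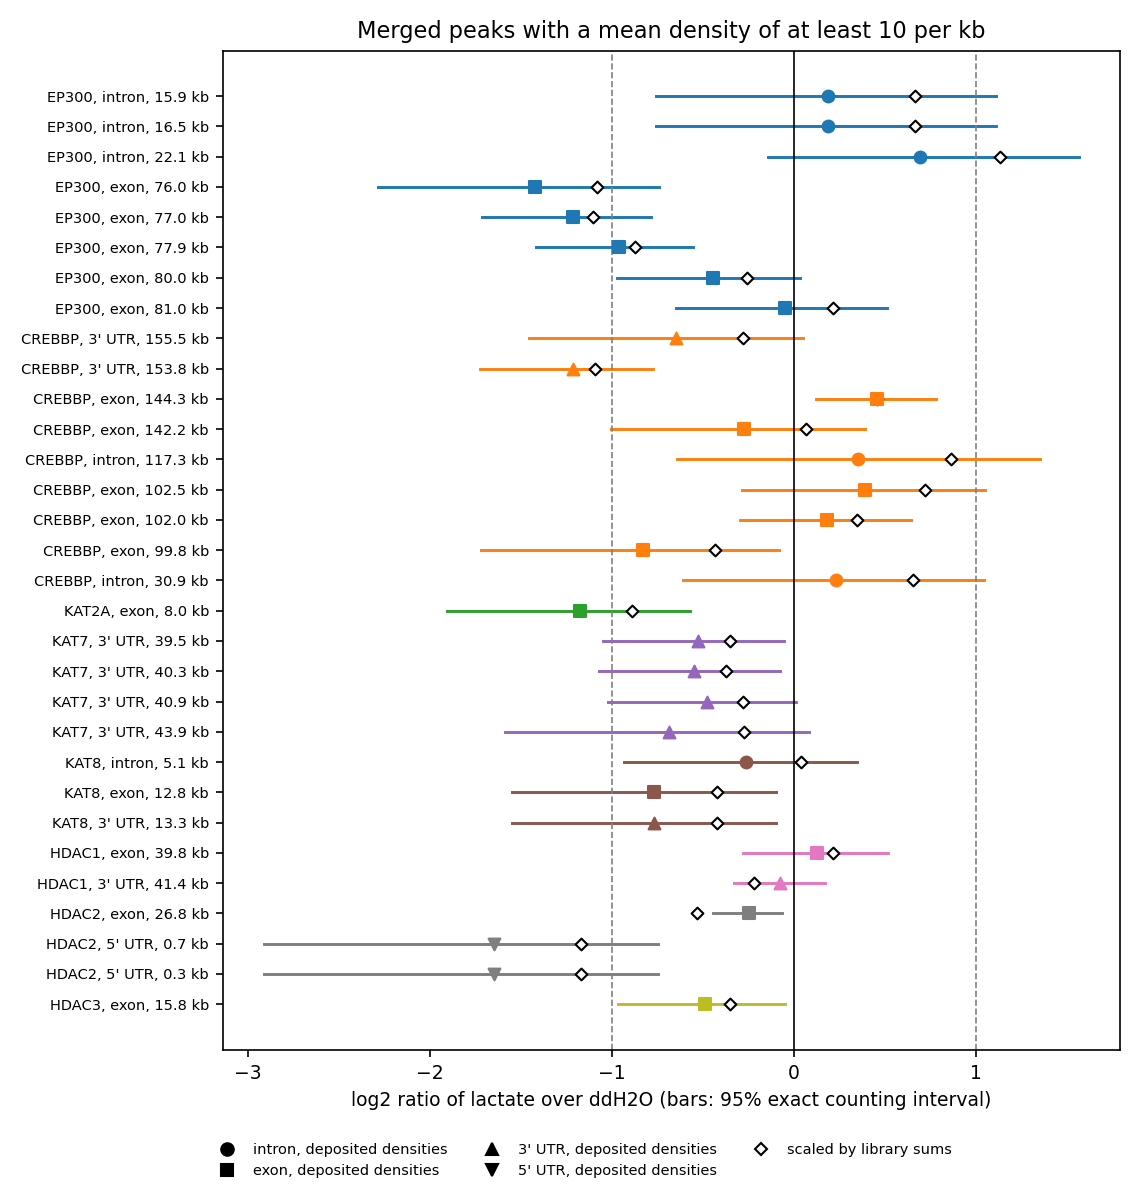
Log2 ratio of lactate over ddH2O (x axis) of the 31 merged peaks at a mean density of at least 10 per kb, labelled by gene, region and distance from the gene's start, with bars for the 95% exact counting interval and open diamonds for the ratio by library sums. The 2 EP300 exons, the CREBBP 3′ UTR, KAT2A and the 2 HDAC2 5′ UTR windows lie below -1, and KAT2A moves to -0.89 by library sums.

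All 6 lower windows had counting intervals below 0, and 4 genes account for them. Of the 8 windows in the 3′ UTR at the density minimum, all had ratios below 0 on both scales (median log2 ratio -0.60 deposited and -0.31 by library sums), where 60.7% of the 7059 such windows of protein-coding genes did on the deposited scale. Only 1 of them, on CREBBP, passed 2-fold, and the counting intervals of 4 included no difference. These 8 windows come from CREBBP, KAT7, KAT8 and HDAC1, and several share reads. Without the density minimum, the 6 windows more than 2-fold higher with lactate were all in introns, on EP300, CREBBP, KAT7 and HDAC1, with between 0 and 8 ddH2O reads and 5 to 21 lactate reads. They are 10.3% of the members' 58 intron windows, against 17.8% for introns of protein-coding genes, and 18 of the 58 were more than 2-fold lower (31.0%, against 38.5%).

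The densest window of each gene, all of the same length, ordered the genes from HDAC2 through HDAC1, CREBBP, EP300, HDAC3, KAT7, KAT2A and KAT8 to SIRT1, with densities, as the mean of both libraries, of 257, 145, 81.0, 58.8, 46.3, 39.8, 26.9, 23.4 and 7.36 per kb. The 95% exact Poisson intervals of the reads kept HDAC2 (774 to 887 ddH2O reads) and HDAC1 (383 to 464) apart from each other and from the rest in both libraries. CREBBP and EP300 overlapped in ddH2O (157 to 212 and 175 to 232) but not in lactate (116 to 163 and 45.8 to 77.2). EP300 and HDAC3 overlapped in lactate (45.8 to 77.2 and 44.9 to 76.1) but not in ddH2O. HDAC3 and KAT7 overlapped in both libraries, as did KAT7 and KAT2A, and KAT2A and KAT8. KAT8 and SIRT1 overlapped in lactate (23.5 to 47.5 and 8.40 to 24.7) but not in ddH2O (46.7 to 78.4 and 6.20 to 21.0). The order within a library differed, since with ddH2O EP300 (77.6 per kb) stood above CREBBP (68.2) and with lactate KAT8 (21.3) stood above KAT2A (16.5). Without replicates these intervals say nothing of the spread between cultures. Each window was also picked as the densest of its gene, which the intervals do not account for. The peaks of the HDAC2 and HDAC1 windows were called with ddH2O alone, at folds of 1.63 and 2.23. The order is thus one of read density and not of enrichment over input.

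Fold enrichment over input was higher with ddH2O at 20 of the 34 peaks called in both lists (58.8%), against 60.2% of 23903 such pairs on protein-coding genes. The members' median folds at these peaks were 5.05 with lactate and 6.85 with ddH2O, where protein-coding genes had 3.87 and 4.78. The shared peaks of KAT2A (1), KAT7 (1), KAT8 (2) and HDAC3 (1) were higher with ddH2O and the 2 of SIRT1 were higher with lactate, numbers too small to describe a gene, while EP300, CREBBP, HDAC1 and HDAC2 had peaks on both sides.

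**Figure D5:**
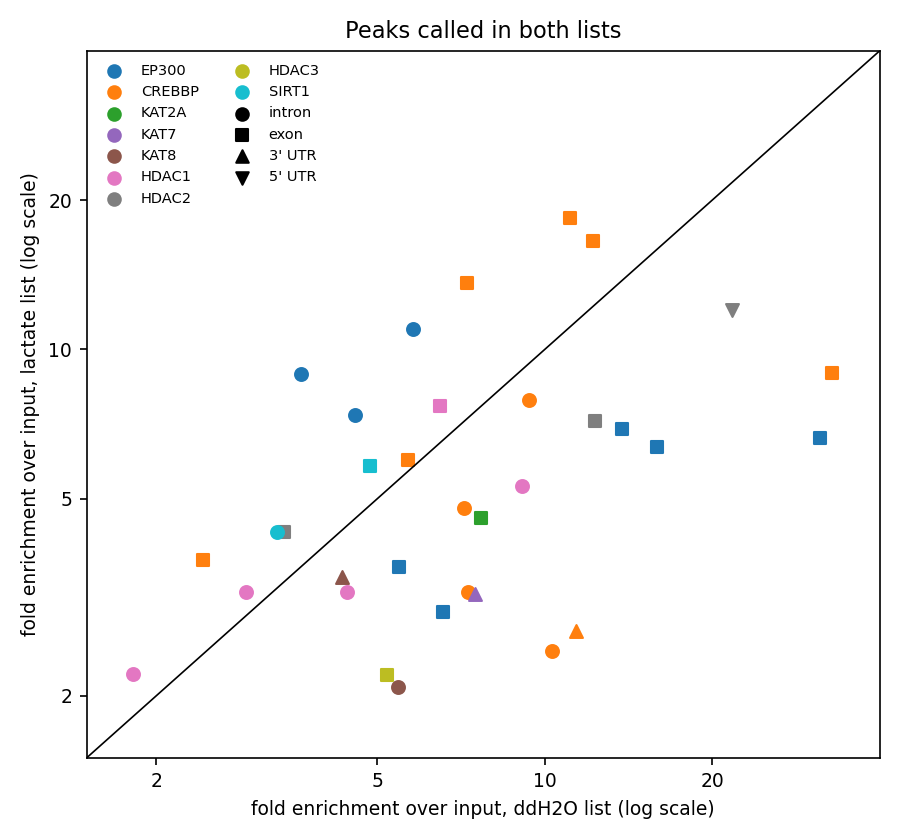
Fold enrichment over input with lactate (y axis) and ddH2O (x axis), both on log scales, of the 34 peaks called in both lists, coloured by gene and shaped by region, with a line at equal folds. An EP300 exon and a CREBBP exon stand farthest right at 31.3 and 32.8 with ddH2O, and the 3 EP300 intron peaks lie above the line.

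The other genes of the pathway were read from lists. All 14 other acetyltransferases (such as KAT2B and KAT6A) had a peak in at least 1 condition, and of their 33 merged peaks at the density minimum 0 were higher with lactate and 2 lower. The other zinc-dependent deacetylases had a peak on 7 of 8 genes, HDAC10 being without one, and 0 of 5 merged peaks passed 2-fold, as did 0 of 3 on the 6 other sirtuins. Enzymes that load lactate or make acyl-CoA, among them AARS1 and ACSS2, had peaks on 7 of 7 genes and 0 of 14 past 2-fold. Acetyl-lysine readers had peaks on 14 of 14 genes, with 0 higher and 3 lower of 57. Peaks with lactate and ddH2O lay on 12 and 14 other acetyltransferases, 7 and 7 other zinc-dependent deacetylases and 5 and 6 other sirtuins. The counts were 7 and 7 for the acyl-CoA enzymes and 13 and 14 for the readers, where 47.1% and 58.4% of protein-coding genes had one. Acetyltransferase partners had 3 higher and 5 lower of 55, and deacetylase partners 3 higher and 13 lower of 87, near the 4.95% and 12.1% of all merged peaks, with MTA2, SAP18 and SAP30 without a peak. By library sums, 10.9% of all merged peaks were higher and 5.92% lower. On that scale the counts became 6 higher and 5 lower for the acetyltransferase partners and 5 and 4 for the deacetylase partners. They were 1 and 0 for the other acetyltransferases, the other sirtuins and the acyl-CoA enzymes each, and 1 and 1 for the readers. The other zinc-dependent deacetylases stayed at 0.

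The densest merged peaks of these lists were on BRD2, a bromodomain reader, with 835 per kb with lactate and 507 with ddH2O in its 3′ UTR, on NCOR1, the scaffold that activates HDAC3, with 480 and 585, and on ATAD2, a bromodomain ATPase, with 470 and 387. The highest ratios past 2-fold were at introns of MTA3 of the NuRD complex (23.5 and 6.09 per kb, log2 ratio 1.95, counting interval 1.09 to 3.05) and JADE3, a partner of KAT7 (23.5 and 10.6, 1.15, 0.40 to 1.97). The lowest were at exons of RCOR3, a CoREST subunit (3.94 and 22.2, log2 ratio -2.50, -4.20 to -1.47), and EPC1, a partner of KAT5 (12.3 and 59.7, -2.28, -3.12 to -1.65).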

How the data were processed

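RIP-seq of PANC-1 cells was read from deposited tables. Per the labels and their processing notes, fastp 0.20.1, HISAT2 2.1.0, MACS2 2.2.7.1, bedtools 2.29.2, HOMER 4.11.1, DiffBind and GRCh38/hg38 were used, with no role given. Peak calling was done by the authors per IP library with the matching input as control, and the deposited lists give each peak a fold (ratio of IP over input) and a q-value. The authors merged the lists with MAnorm and deposited a normalized signal (read density) per IP library. The same table holds the authors' log2 ratio, mean log2 density and P, which were not used.

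Reads in the windows (2000 bases) were recovered from the densities, taken as reads plus 1 per kb after a straight line (slope 0.17, intercept -0.20) was removed, and came out whole within 0.1 in 99.998% of 116484 merged peaks. The recovery was tested on data simulated with the same formula, which checks the calculation and not whether the formula holds for the deposited densities. Counting intervals are exact Clopper-Pearson intervals at the 95% level, and like the Poisson intervals cover counting error only. The depth of the input libraries is unknown. A merged peak took the gene of any called peak overlapping it by 1 base. Gene spans and the promoter sequence came from RefSeq (GRCh38.p14), and no other genome sequence was used here.

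Members and lists were chosen with earlier results of these data known. All members were named, each with its densest window, each window past 2-fold and its peak of highest fold, and of the other lists the 3 densest genes and the 2 highest and 2 lowest ratios past 2-fold. The intron peaks of HDAC1 with lactate alone, and other windows under the density minimum, were named after their values were seen. Alternatives were a stricter fold or q-value, other thresholds, density minimums, overlaps and scalings. The software was Python 3.11.15 with scipy 1.17.1, numpy 2.4.6, matplotlib 3.10.9 and pandas 2.3.3.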

Additional observations from a re-analysis of the deposited data

How the results depend on the processing

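With a fold over input of at least 4, the members kept 23 lactate and 42 ddH2O peaks, and with a q-value below 0.05 they kept 25 and 57, by construction of the stricter rule. The intron share of the lactate peaks fell outside its interval at that q-value, to 36.0%, and the cause was not tested. The count of higher merged peaks went from 0 to 1 at a fold over 1.5, to 6 without a density minimum and to 1 by library sums. The count of lower merged peaks went from 6 to 12 at a fold over 1.5, 0 at a fold over 4, 38 without a density minimum, 19 with no scaling between libraries, and 3 with windows that overlap a denser one of the same gene left out. That last choice, which drops both EP300 exons and 1 HDAC2 window, and a rule that asked the counting interval to exclude no difference, which left 6, were made after seeing the data. Assigning peaks by their midpoint on the RefSeq span gave 10 of 10 genes a peak in each list, since RNASEH2C peaks then count for KAT5. The median member window held 7 lactate and 11 ddH2O reads, so single windows have wide counting intervals. No paired analysis was possible because lactate and ddH2O were each read in a single IP library, and no test was made.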

Other observations

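Some windows held few reads of the library in which their peak was called. Of the 48 merged peaks called with lactate on the members, 2 had 0 lactate reads in the window (4.17%, against 1.75% of 47346 over all genes), namely an intron peak of EP300 at chr22:41111444-41111643 and an exon peak of HDAC2 at chr6:113953110-113953574. Of the 93 called with ddH2O, 1 had 0 ddH2O reads, an exon peak of CREBBP at chr16:3731925-3732124 (1.08%, against 2.43%). These were named after their values were seen. The HDAC2 peak among them had a lactate fold of 4.28 and a q-value of 0.015. Another HDAC2 exon peak, chr6:113959785-113960196, had a ddH2O q-value of 7.7e-68 with 27 ddH2O reads in its window. How reads were counted in the windows is not stated. The recovered reads, densities and counting intervals thus need not cover all reads behind a called peak. The median window of the members held 7 lactate and 11 ddH2O reads, against 5 and 7 over all merged peaks.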
